A study of Mus musculus with 9 samples.

Results

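The genes described here are 9 markers and regulators of dendritic cells, namely Xcr1, Clec9a, Batf3, Cadm1, Itgae, Flt3, Zbtb46, Cd209a and Siglech. They were chosen by symbol from the 45777 genes of the deposited count table, and all 9 were found there. RNA was sequenced from CD45+ cells, that is leukocytes carrying the surface protein encoded by Ptprc, which had been pulled with magnetic beads from WEHI-164 grafts. WEHI-164 is a mouse fibrosarcoma line, and it was grown under the skin of BALB/c mice. The 3 groups were ADU-S100 + Doxorubicin (25 µg of the STING agonist ADU-S100 with 5 mg/kg of the cytotoxic drug doxorubicin), Doxorubicin (5 mg/kg alone) and Control (vehicle), all collected on day 7 after intratumoral treatment. The study's schedule was doxorubicin weekly and ADU-S100 more often than that, at these amounts each time. Its methods do not state how many injections came before collection. Each group had 3 libraries, called biological triplicates by the study, and the sources used here do not say whether each came from a single mouse. P-values therefore measure the spread between these libraries. All grafts came from 1 cell line, and no group received ADU-S100 alone in these data.

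Dendritic cells take up antigen and present it to T cells. Conventional type 1 dendritic cells, or cDC1, are known for cross-presentation, in which antigen taken up from dying cells is shown on MHC class I to CD8+ T cells, and this makes them a much studied cell type in tumors. Plasmacytoid dendritic cells, or pDC, are known as strong producers of type I interferon after sensing nucleic acids. In a cDC1, BATF3 is a transcription factor required for its development, XCR1 is the receptor for the chemokine XCL1, CLEC9A binds actin exposed on dead cells, and the surface proteins encoded by Cadm1 and Itgae are used to recognise the cell. Flt3 encodes the receptor of the growth factor FLT3L that dendritic cells depend on, and Zbtb46 a transcription factor of conventional dendritic cells. Cd209a encodes a lectin of monocyte-derived and type 2 dendritic cells, and Siglech a surface receptor of pDC.

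RefSeq promoters of GRCm38.p6, the build called mm10, were found for 7 of the 9 genes, with 250 bases before and 50 bases after the start site. The promoters of Cd209a and Batf3 are shown because Cd209a gave the largest estimate of the 9 genes in both comparisons of the combination, and Batf3 encodes the factor that cDC1 need. Capitals mark a match to the EICE motif, the element bound by PU.1 together with IRF4 or IRF8, and the Batf3 window held no match to be marked.
Cd209a, chr8:3748935-3749234, minus strand: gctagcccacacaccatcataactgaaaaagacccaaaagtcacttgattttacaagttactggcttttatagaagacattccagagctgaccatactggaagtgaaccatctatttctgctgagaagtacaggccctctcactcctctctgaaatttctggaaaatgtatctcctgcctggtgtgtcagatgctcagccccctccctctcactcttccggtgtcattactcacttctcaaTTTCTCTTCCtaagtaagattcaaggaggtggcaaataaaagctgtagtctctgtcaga
Batf3, chr1:191098164-191098463, plus strand: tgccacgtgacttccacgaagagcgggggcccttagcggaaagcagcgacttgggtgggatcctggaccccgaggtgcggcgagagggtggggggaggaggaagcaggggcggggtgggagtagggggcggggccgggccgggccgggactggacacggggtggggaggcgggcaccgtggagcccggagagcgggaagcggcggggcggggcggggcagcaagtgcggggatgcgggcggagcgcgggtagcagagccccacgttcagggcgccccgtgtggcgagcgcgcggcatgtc

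The motifs searched on both strands were the ISRE (GAAA, any 2 bases, GAAA), the AICE1 (TTTC, any 4 bases, TGANTCA), the AICE2 (GAAA followed at once by TGANTCA), the EICE (GGAA, any 2 bases, GAAA), the AP-1 site TGANTCA and the E-box CANNTG. Every AICE match therefore also counts as an AP-1 match. The EICE was found in 1 of the 7 promoters, that of Cd209a, where it starts 9 bases before the start site on the strand opposite to the gene, and in 2.72% of all 32851 promoters of this length. Zbtb46 alone held an AICE2 and with it an AP-1 site, motifs that were present in 0.125% and 7.81% of all promoters. The start site of that Zbtb46 window lies 68874 bases inside the annotated gene, so the window covers an internal start. The E-box was found in 7 of 7 promoters and in 72.3% of all, whereas the ISRE and the AICE1 were found in 0 of 7, against 3.44% and 0.119% of all. These matches describe letters and do not show that a factor binds there.

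All 9 genes passed the filter on low counts, as did 16373 genes in total, at total counts of 50110494 to 69456603 per library. Levels are given as CPM, the count relative to the TMM-scaled total of its library. The smallest count of any of the 9 genes was 6, for Siglech in ADU-S100 + Doxorubicin replicate 1, and the largest was 6188, for Cadm1 in Control replicate 1. Ptprc, the gene of the sorted protein, ranged from 189 to 627 CPM. Genes of fibroblasts and sarcoma cells were highest in ADU-S100 + Doxorubicin replicate 3, Doxorubicin replicate 1 and Control replicate 2 of their groups, with a mean log2 CPM of 6.71, 5.64 and 6.45 over 13 genes, and the mean was 3.01 to 5.15 in the other 6 libraries. In sorted bulk RNA, fewer cells of a type and less RNA per cell cannot be told apart.

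To compare levels between genes, CPM was divided by the annotated exon length in kilobases. Cadm1 was the highest of the 9 genes, with a median of 7.44 CPM per kb over the 9 libraries, followed by Batf3 at 2.47, Cd209a at 1.79 and Clec9a at 1.03 CPM per kb. Xcr1 (0.473), Itgae (0.462), Flt3 (0.353), Siglech (0.276) and Zbtb46 (0.222 CPM per kb) formed the lower end. Cadm1 lay above Batf3 in 9 of 9 libraries, and Cd209a above Clec9a in 8 of 9. Batf3 and Cd209a, Xcr1 and Itgae, and Siglech and Zbtb46 did not keep an order, since the gene with the higher median was the higher of each pair in only 5 of 9 libraries. Cadm1 was the highest gene per kb in every library but ADU-S100 + Doxorubicin replicate 1, where Cd209a reached 7.88 CPM per kb, against 3.77 for Cadm1.

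**Figure D1:**
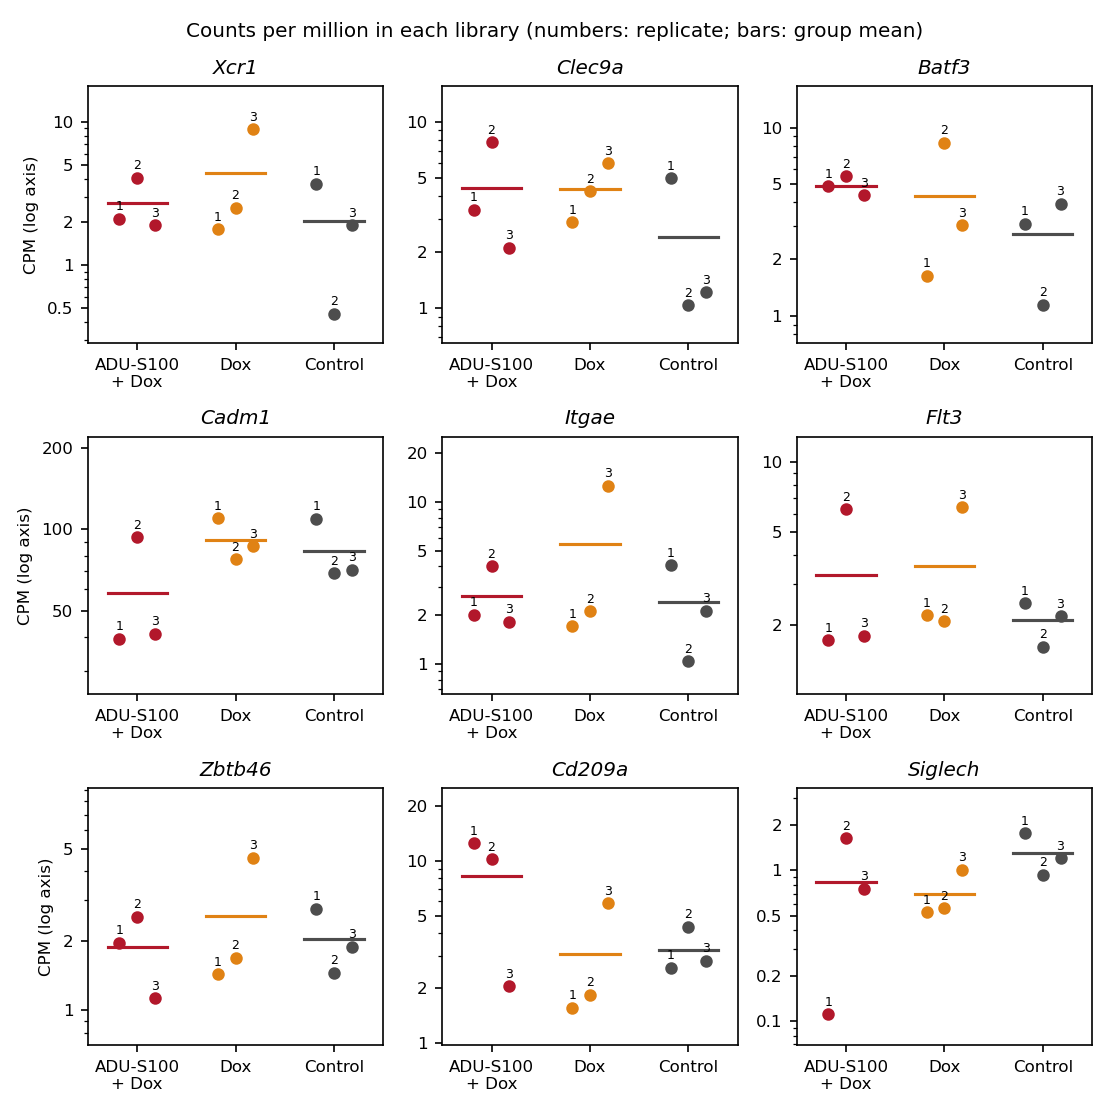
CPM of each of the 9 genes in the 9 libraries, on log axes that differ between panels. Points are libraries with their replicate number, and bars are group means (n = 3). Doxorubicin replicate 3 was the highest library for Xcr1, Itgae, Flt3 and Zbtb46. The groups overlap for 8 of the 9 genes in ADU-S100 + Doxorubicin versus Control, where 8.33% of all genes had groups that did not.

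None of the 9 genes passed the test in any of the 3 comparisons. The test was edgeR's quasi-likelihood test across all genes. A gene was called where its fold change passed 2 and its unadjusted p was below 0.05, the thresholds of the study, or where its Benjamini-Hochberg adjusted p was below 0.05. In ADU-S100 + Doxorubicin versus Control, 0 of 9 genes were called, where 1.46% of all genes were called higher and 0.708% lower. In ADU-S100 + Doxorubicin versus Doxorubicin, 0 of 9 genes were called, where 0.867% of all genes were called higher and 0.348% lower. In Doxorubicin versus Control, 0 of 9 genes were called, where 0.36% of all genes were called higher and 0.0916% lower. A count of 0 of 9 lies near these shares and is no result about the 9 genes.

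By adjusted p, edgeR called 0% of all genes in each comparison. At an unadjusted p under 0.05 it called 727, 451 and 116 of all genes in ADU-S100 + Doxorubicin versus Control, ADU-S100 + Doxorubicin versus Doxorubicin and Doxorubicin versus Control, and none of the 9. DESeq2 gave 27, 9 and 2 genes at an adjusted p under 0.05 in the same comparisons, again none of the 9. The smallest edgeR adjusted p of the 9 genes was 0.948, 0.999 and 1.0. Standard errors of the log2 fold changes were 0.35 to 0.81, and 26 of the 27 intervals (95%) included a fold of 2, which is 1 on the log2 scale, in at least 1 direction.

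The median log2 fold change over the 9 genes was 0.41 in ADU-S100 + Doxorubicin versus Control, with 6 positive and 3 negative, beside a median of 0.06 over all genes. It was -0.13 in ADU-S100 + Doxorubicin versus Doxorubicin, with 4 positive and 5 negative, beside 0.07. It was 0.67 in Doxorubicin versus Control, with 7 positive and 2 negative, beside -0.01. Single libraries set these medians. Without Doxorubicin replicate 3 the median was 0.03 in Doxorubicin versus Control, with 5 of 9 positive, and 0.33 in ADU-S100 + Doxorubicin versus Doxorubicin, with 7 positive. The ADU-S100 + Doxorubicin versus Control median was -0.25 without ADU-S100 + Doxorubicin replicate 2 and -0.06 without Control replicate 2. Over all libraries left out in turn, the medians ran from -0.25 to 0.78 in ADU-S100 + Doxorubicin versus Control, from -0.73 to 0.33 in ADU-S100 + Doxorubicin versus Doxorubicin and from 0.03 to 1.02 in Doxorubicin versus Control. The comparisons share libraries, so these medians are not independent of one another. Scaling on 11 genes that all leukocytes express moved the median of all genes to 0.09, 0.27 and -0.19. With that scaling the median of the 9 genes was 0.50, -0.09 and 0.47 in the same order of comparisons.

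**Figure D2:**
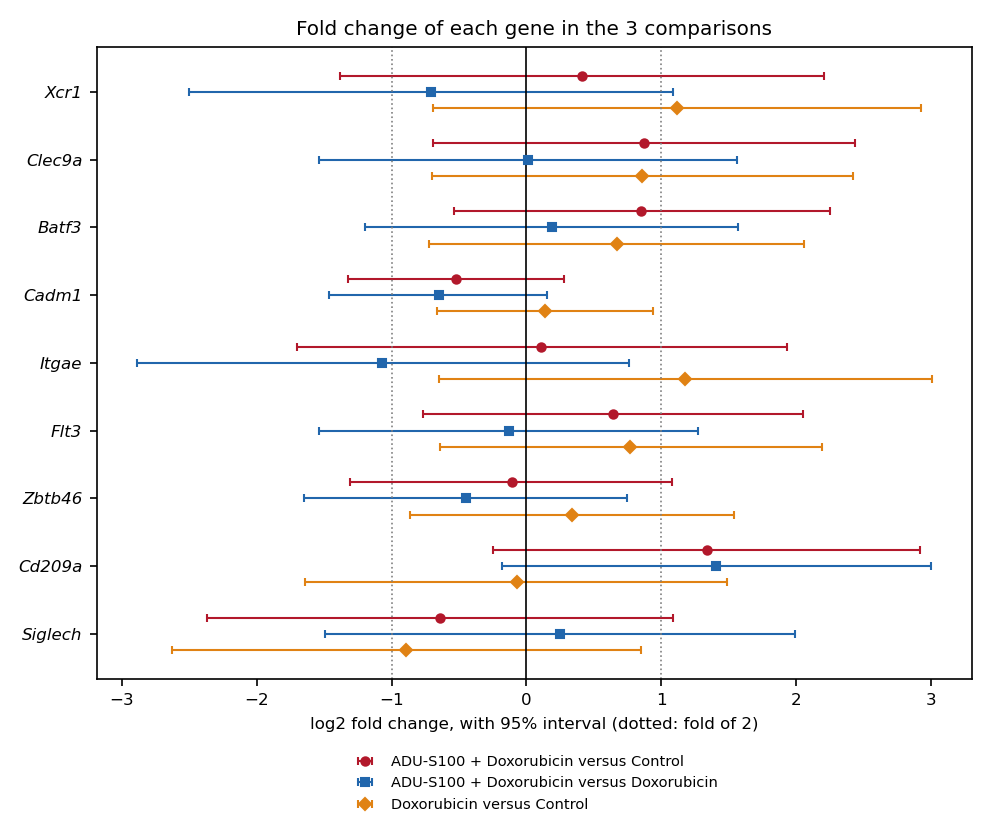
Log2 fold change of each of the 9 genes (symbols) with its 95% interval (bars) in the 3 comparisons, from edgeR. Every interval includes 0, and the dotted lines mark a fold of 2; Cadm1 had the narrowest intervals, and Cd209a the largest estimates with ADU-S100.

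The cDC1 receptors Xcr1 and Clec9a were detected in every library at a few CPM. Xcr1, the XCL1 receptor (chromosome 9, 123852315 to 123862029), was at 2.11, 4.07 and 1.91 CPM in ADU-S100 + Doxorubicin, at 1.78, 2.52 and 8.87 CPM in Doxorubicin and at 3.70, 0.460 and 1.90 CPM in Control. The 2 extremes, Doxorubicin replicate 3 and Control replicate 2, differed 19.3-fold, and the groups overlapped in every comparison. For the combination, the log2 fold change of Xcr1 was 0.41 (SE 0.79, 95% interval -1.38 to 2.21) versus Control and -0.71 (SE 0.79) versus Doxorubicin. Doxorubicin versus Control gave 1.12 (SE 0.80, 95% interval -0.69 to 2.93), which became 0.09 without Doxorubicin replicate 3 and 1.90 without Control replicate 1.

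Clec9a, the receptor for dead cells (chromosome 6, 129408862 to 129424764), was at 3.38, 7.76 and 2.11 CPM in ADU-S100 + Doxorubicin, at 2.89, 4.25 and 6.00 CPM in Doxorubicin and at 4.98, 1.04 and 1.22 CPM in Control. Control replicates 2 and 3 were the 2 lowest of all libraries, whereas Control replicate 1 was among the 3 highest, so that both treated groups overlapped Control through that library. In edgeR the log2 fold change of Clec9a was 0.87 (SE 0.69) for ADU-S100 + Doxorubicin and 0.86 (SE 0.69) for Doxorubicin, both versus Control, and 0.01 (95% interval -1.54 to 1.56) between the treated groups. Leaving out Control replicate 1 brought Clec9a past the unadjusted threshold in both, with a log2 fold change of 1.96 for ADU-S100 + Doxorubicin and 1.95 for Doxorubicin, at an edgeR adjusted p of 1.0 in both. Clec9a shares 184 exonic bases with Clec1b on the same strand, and reads of these bases cannot be assigned to either gene with certainty.

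Batf3 and Zbtb46 encode transcription factors. Batf3 (chromosome 1, 191098414 to 191108943) was at 4.90, 5.50 and 4.36 CPM in ADU-S100 + Doxorubicin, at 1.64, 8.30 and 3.04 CPM in Doxorubicin and at 3.08, 1.15 and 3.94 CPM in Control. Its 3 combination libraries lay within 1.26-fold of each other and above every Control library, while the 3 Doxorubicin libraries spread 5.07-fold around them. Batf3 was the only one of the 9 genes whose groups did not overlap in ADU-S100 + Doxorubicin versus Control, a pattern shown by 8.33% of all genes. A count of 1 of 9 lies near that share and is no result about Batf3. The log2 fold change was 0.85 (SE 0.62, 95% interval -0.54 to 2.25), a 1.81-fold difference that did not pass the test. With the fibroblast mean as a covariate it was 1.03 and past the unadjusted threshold (edgeR adjusted p = 0.678), and the 16 alternatives gave adjusted p of 0.477 to 1.0.

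No group separation was found among the 9 genes in ADU-S100 + Doxorubicin versus Doxorubicin, where 6.16% of all genes had groups that did not overlap, or in Doxorubicin versus Control, where 4.39% did. Batf3 had a log2 fold change of 0.19 (SE 0.61) and 0.67 (SE 0.62) in them, and without Doxorubicin replicate 2 it was 1.07 and -0.22. Zbtb46 (chromosome 2, 181371009 to 181493262), whose protein restrains alternative fates in conventional dendritic cells, was at 1.96, 2.54 and 1.13 CPM in ADU-S100 + Doxorubicin, at 1.44, 1.69 and 4.58 CPM in Doxorubicin and at 2.75, 1.46 and 1.89 CPM in Control. Doxorubicin replicate 3 stood above all others, and the rest of the libraries lay between 1.13 and 2.75 CPM with no order by group. Zbtb46 had a log2 fold change of -0.11 (95% interval -1.31 to 1.08) for ADU-S100 + Doxorubicin and 0.34 (-0.86 to 1.54) for Doxorubicin versus Control. Without Doxorubicin replicate 3 the estimate for Doxorubicin was -0.38.

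Of the 2 adhesion molecules, Cadm1 was higher per kb than Itgae by median. Cadm1 (chromosome 9, 47530170 to 47862280), which binds CRTAM on activated T cells and is also made by many other cells, mast cells among them, was at 39.4, 93.7 and 41.1 CPM in ADU-S100 + Doxorubicin, at 109.8, 77.7 and 86.7 CPM in Doxorubicin and at 109.7, 68.9 and 70.9 CPM in Control. Replicates 1 and 3 of the combination were the 2 lowest libraries of all, and replicate 2 lay within both other groups. Cadm1 had a log2 fold change of -0.52 (SE 0.36) versus Control and -0.65 (SE 0.36) versus Doxorubicin. Without ADU-S100 + Doxorubicin replicate 2 these were -1.05 (edgeR adjusted p = 0.666) and -1.18 (edgeR adjusted p = 0.978), past the unadjusted threshold. Doxorubicin versus Control gave 0.14, with a 95% interval of -0.66 to 0.94 that left out a fold of 2.

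Itgae (chromosome 11, 73090505 to 73147449) encodes CD103, which marks cDC1 of peripheral tissues and also tissue-resident CD8+ T cells and regulatory T cells. Its level was 2.01, 4.01 and 1.82 CPM in ADU-S100 + Doxorubicin, 1.71, 2.11 and 12.6 CPM in Doxorubicin and 4.08, 1.04 and 2.13 CPM in Control. Doxorubicin replicate 3 was thus far above the other 8 libraries, none of which exceeded 4.08 CPM. The log2 fold change was 0.11 (SE 0.80) for ADU-S100 + Doxorubicin versus Control, -1.07 (SE 0.81) for ADU-S100 + Doxorubicin versus Doxorubicin and 1.18 (SE 0.81) for Doxorubicin versus Control. Without Doxorubicin replicate 3 the estimates versus and for Doxorubicin changed sign, to 0.45 and -0.34.

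The same library was the highest for markers of other cells that may carry CD103. The summed level of 11 T cell genes was 8.50 to 50.5 CPM in ADU-S100 + Doxorubicin, 8.98, 36.7 and 108 CPM in Doxorubicin and 7.43 to 22.7 CPM in Control, and 10 of the 11 genes were highest in Doxorubicin replicate 3. The 4 regulatory T cell genes summed to 53.6 CPM there, against 6.72 to 29.6 CPM in the other libraries, and 4 of 4 were highest in it. The sum of 7 mast cell genes was 79.8 CPM there and 5.79 to 61.7 CPM elsewhere, with 4 of the 7 genes highest in it. Ms4a2 was at 0 in 4 libraries and Fcer1a in 3. Hdc alone gave 33.9 CPM of the mast cell sum in Doxorubicin replicate 3 and 42.8 CPM in ADU-S100 + Doxorubicin replicate 2. Sums of NK cell and endothelial genes were also highest in Doxorubicin replicate 3, at 7.98 and 84.1 CPM. Elsewhere they reached 7.17 and 71.4 CPM. Those of B cell, monocyte and macrophage, progenitor, fibroblast and keratinocyte genes were not highest there. None of the 11 T cell genes was at 0 in any library. In Doxorubicin versus Control 4 of them were called higher, Cd3d, Trbc2, Cd8a and Cd3g, where 0.36% of all genes were. Their unadjusted p in edgeR was 0.041 to 0.049, and 0 of the 11 had an adjusted p under 0.05. The sum in Doxorubicin replicate 1, 8.98 CPM, lay within the range of Control. The part of these cells in the Itgae, Xcr1, Flt3 and Zbtb46 values of that library was not tested.

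**Figure D3:**
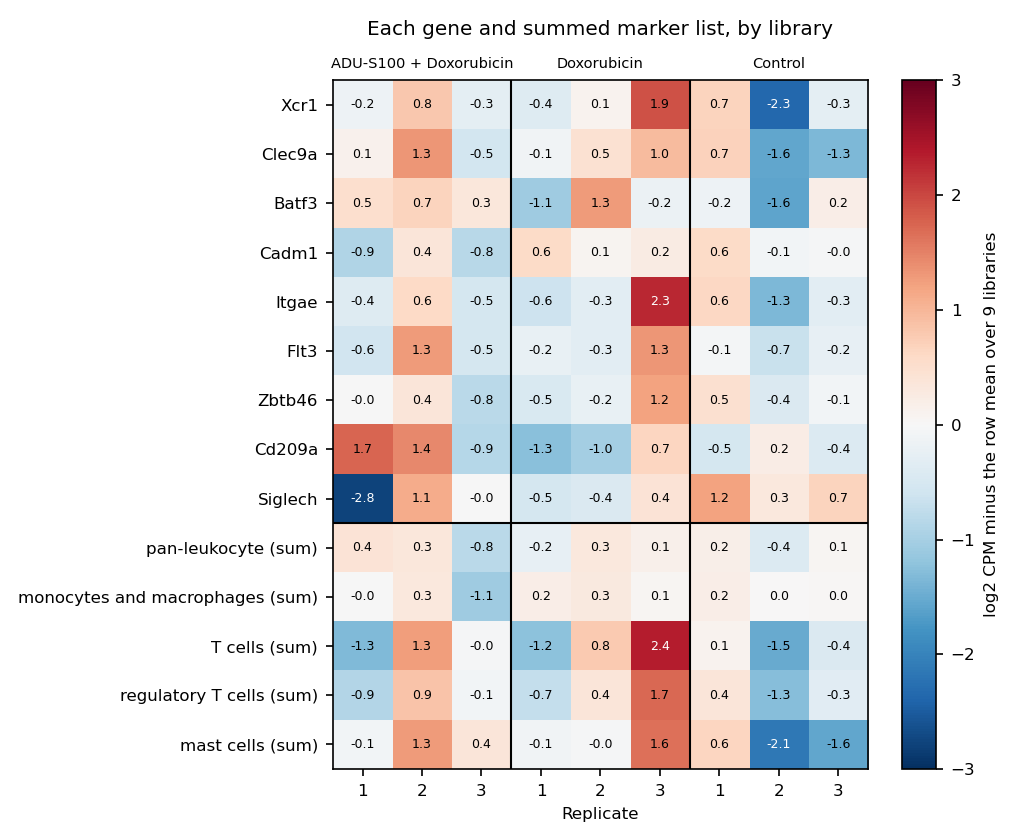
Log2 CPM of each of the 9 genes, and of 5 summed marker lists, minus the mean of its row over the 9 libraries (colour and printed value). Doxorubicin replicate 3 stands out for Xcr1, Itgae, Flt3 and Zbtb46 and also for the T cell, regulatory T cell and mast cell sums, and Control replicate 2 is low for Xcr1, Clec9a, Batf3 and Itgae.

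Flt3 (chromosome 5, 147330741 to 147400489), the cytokine receptor shared by dendritic cells and their bone marrow progenitors, was at 1.72, 6.27 and 1.79 CPM in ADU-S100 + Doxorubicin, at 2.20, 2.08 and 6.43 CPM in Doxorubicin and at 2.48, 1.61 and 2.18 CPM in Control. A single library in each treated group, replicate 2 of the combination and replicate 3 of Doxorubicin, was about as high as the other, and the remaining 7 lay between 1.61 and 2.48 CPM. Flt3 had a log2 fold change of 0.64 (SE 0.63) for ADU-S100 + Doxorubicin and 0.77 (SE 0.63) for Doxorubicin, both versus Control. Without those libraries it was -0.25 and 0.03. The combination and Doxorubicin differed by -0.13 (95% interval -1.54 to 1.27).

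Cd209a, the mouse relative of human DC-SIGN (chromosome 8, 3743395 to 3748984), gave the largest estimates of the 9 genes in both comparisons of the combination. It was at 12.5, 10.2 and 2.05 CPM in ADU-S100 + Doxorubicin, at 1.56, 1.84 and 5.86 CPM in Doxorubicin and at 2.59, 4.35 and 2.83 CPM in Control. Replicates 1 and 2 of the combination were the highest of all 9, and replicate 3 lay below every Control library, so that the groups overlapped. The mean was 8.23 ± 5.48 CPM in ADU-S100 + Doxorubicin, 3.09 ± 2.41 in Doxorubicin and 3.26 ± 0.956 in Control (SD, n = 3 each).

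For Cd209a the log2 fold change was 1.34 (SE 0.70, 95% interval -0.25 to 2.92) versus Control and 1.41 (SE 0.70, -0.18 to 3.00) versus Doxorubicin, and neither passed the test. Leaving out ADU-S100 + Doxorubicin replicate 3 gave 1.80 (edgeR adjusted p = 0.306) and 1.87 (edgeR adjusted p = 0.420), both past the unadjusted threshold. Leaving out Doxorubicin replicate 3 gave 2.27 versus Doxorubicin, again past it. ADU-S100 + Doxorubicin replicate 3 had the highest fibroblast mean of log2 CPM. The summed CPM of the same fibroblast genes was 4599 in it, below the 4924 to 6882 CPM of Control. This combination library also had the lowest Ptprc level and the lowest sum of the 11 leukocyte genes, 3714 CPM against 4823 to 8636 CPM in the others. Scaled on those leukocyte genes, the log2 fold changes were 0.90 and 1.30, and with the fibroblast mean as a covariate 1.13 and 1.22. Without the library of highest fibroblast mean in each group they were 2.06 and 1.55 and passed the unadjusted threshold, with edgeR adjusted p of 0.379 and 0.588. DESeq2 called Cd209a only versus Doxorubicin, at 1.40 (DESeq2 adjusted p = 1.0), and limma-voom only versus Control, at 1.52 (limma adjusted p = 0.464). Doxorubicin versus Control gave -0.07 (SE 0.69), and -0.93 without Doxorubicin replicate 3. Cd209a is on a gene list that the study picked from these same libraries, which is no independent evidence of its direction.

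The Cd209 paralogs gave no call either. Of 6 paralogs, 5 passed the filter, none was called in any comparison, and no library exceeded 3.10 CPM for any of them. Between ADU-S100 + Doxorubicin and Doxorubicin the log2 fold change was 1.55 for Cd209c, 1.38 for Cd209d, 1.58 for Cd209e, -0.20 for Cd209f and -0.44 for Cd209g, beside 1.41 for Cd209a. Versus Control it was 0.57, -0.11, 1.04, -1.53 and -1.38 in the same order of genes, with a median of -0.11, beside 1.34 for Cd209a. Reads that fit more than 1 of these related genes may have been divided among them by the counting.

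Siglech (chromosome 7, 55768154 to 55779448) was the scarcest gene by count. It was at 0.111, 1.64 and 0.754 CPM in ADU-S100 + Doxorubicin, at 0.527, 0.563 and 1.01 CPM in Doxorubicin and at 1.75, 0.934 and 1.20 CPM in Control. The lowest of these values rests on 6 counts, with an exact 95% Poisson interval of 2.2 to 13.1 counts that covers counting error only, against 78 counts in replicate 2 of the same group. The values within the combination spread 14.8-fold. The log2 fold change was -0.64 (95% interval -2.37 to 1.09) for ADU-S100 + Doxorubicin and -0.89 (-2.63 to 0.85) for Doxorubicin, both versus Control, and 0.25 (-1.49 to 1.99) between the treated groups.

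**Figure D4:**
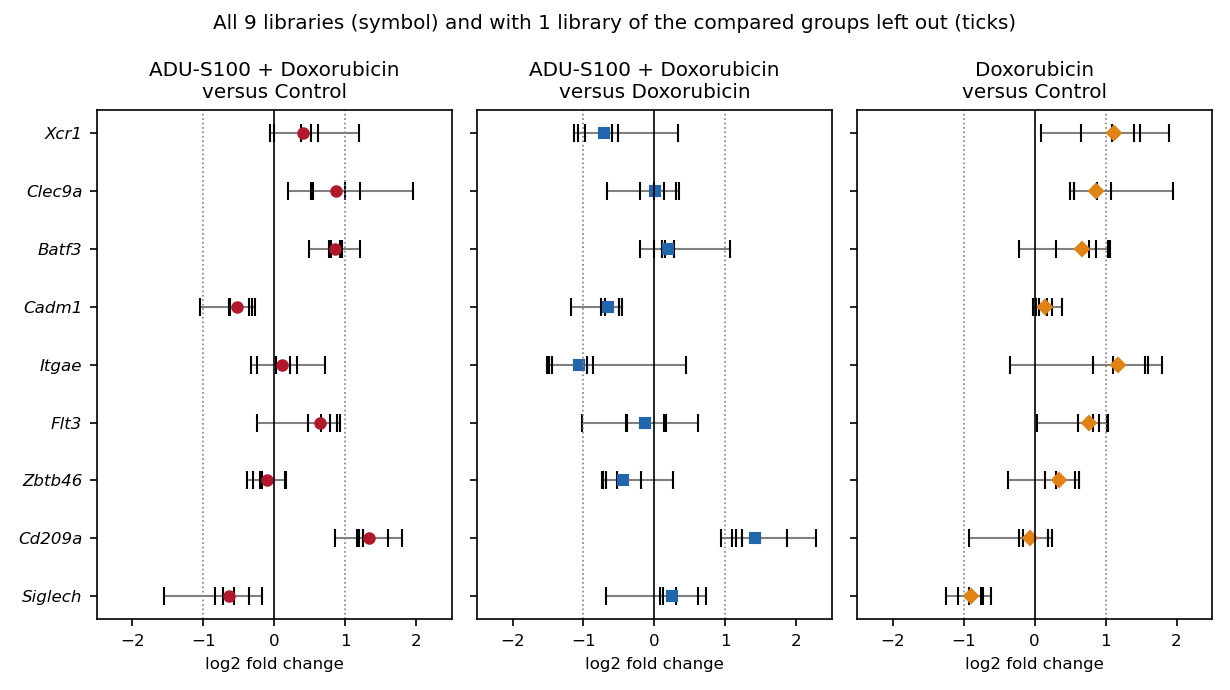
Log2 fold change of each of the 9 genes with all 9 libraries (symbols) and with 1 library of the compared groups left out in turn (ticks, joined by a line). In Doxorubicin versus Control the estimate for Itgae ran from -0.34 to 1.79 and that for Xcr1 from 0.09 to 1.90, while Cadm1 stayed between -0.02 and 0.39.

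Over the 9 libraries, part of the 9 genes varied together. These correlations of log2 CPM describe libraries that share their cell makeup and depth, and no p is given. Doxorubicin replicate 3 was the highest library for Xcr1, Itgae, Flt3 and Zbtb46, and how far it alone sets their r was not tested. Xcr1 had r = 0.93 with Itgae, 0.83 with Clec9a, 0.79 with Zbtb46 and 0.78 with Flt3, and Itgae had r = 0.93 with Zbtb46 and 0.86 with Flt3. Batf3 (r = 0.50 with Xcr1), Cadm1 (0.30), Cd209a (0.21) and Siglech (0.21) stood outside this group. Of the genes used to recognise cDC1, Cadm1 had r between -0.27 and 0.38 with Batf3, Xcr1, Itgae and Clec9a. Cadm1 is also made by many other cells, so these values cannot decide whether the genes of cDC1 moved as 1 group.

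The ratio of Itgae to Xcr1 counts was between 0.838 and 1.42 in 8 of the 9 libraries, with 0.956, 0.985 and 0.951 Itgae counts per Xcr1 count in ADU-S100 + Doxorubicin, 0.959, 0.838 and 1.42 in Doxorubicin and 1.10, 2.27 and 1.12 in Control. The highest ratio was in Control replicate 2, with only 30 Xcr1 counts, and the next in Doxorubicin replicate 3. Counts of Batf3 per Xcr1 count were less even, at 2.32, 1.35 and 2.28 in ADU-S100 + Doxorubicin, 0.918, 3.29 and 0.343 in Doxorubicin and 0.833, 2.50 and 2.07 in Control.

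The tested genes most like each of the 9 were found by Pearson's r of log2 CPM over 9 libraries. For Xcr1 they were Entpd3 (0.949), Klra17 and Chrm3, for Clec9a Hdc (0.955), Asprv1 and Retreg3, and for Batf3 Nosip (0.957), Casp6 and Tnp2. For Cadm1 they were Asah1 (0.953), Tgfbr2 and Dclk2, for Itgae Gimap6 (0.933), Osgin1 and Xcr1 itself, and for Flt3 Adgre4 (0.968), Kit (0.922) and Ppp1r16b. For Zbtb46 they were 9330159M07Rik (0.944), Itgae and Satb1, for Cd209a Gm36193 (0.978), Cytip (0.957) and Il1b (0.954), and for Siglech Mfsd14a (0.959), Cdnf and Klk1 (0.957). Each was selected as the highest of 16373 genes. Hdc and Kit are on the mast cell list above, and Klk1, at most 0.797 CPM in any library, is among the other pDC genes. Both Hdc and Kit were highest in ADU-S100 + Doxorubicin replicate 2. Of the other mast cell genes, Cpa3 was at 0.923, Mcpt4 at 3.13, Tpsb2 at 4.64 and Ms4a2 and Fcer1a at 0.126 CPM there. Hdc gave 42.8 CPM of the mast cell sum of 61.7 CPM in that library. In replicate 1 of that group it gave 19.9 of 24.3 CPM, and in Doxorubicin replicate 3 it gave 33.9 of 79.8 CPM. A link of Clec9a or Flt3 to mast cells was not tested.

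Other genes of the same cell types were taken from lists. Of 17 further cDC1 genes, which included Irf8, the transcription factor that works with BATF3, and Tlr3 and Wdfy4, which serve nucleic acid sensing and cross-presentation, 17 were tested and 0 were called in any comparison. Their median log2 fold change was 0.26, 0.07 and 0.25 in ADU-S100 + Doxorubicin versus Control, ADU-S100 + Doxorubicin versus Doxorubicin and Doxorubicin versus Control, beside 0.06, 0.07 and -0.01 over all genes. Irf8 averaged 285, 273 and 241 CPM in ADU-S100 + Doxorubicin, Doxorubicin and Control, while no library exceeded 8.87 CPM for Xcr1. The part of other leukocytes in the values of this list was not tested. Nfil3, a factor upstream of cDC1 development, was at 306, 252 and 114 CPM in ADU-S100 + Doxorubicin and 166, 139 and 126 CPM in Control, with a log2 fold change of 0.64 (SE 0.34). Rab7b, a small GTPase of lysosomal traffic, had the smallest p of the list, with 0.60 (SE 0.26) in ADU-S100 + Doxorubicin versus Doxorubicin.

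Of 19 further pDC genes, 15 passed the filter and 2 were called. Both were higher in ADU-S100 + Doxorubicin versus Control, where 1.46% of all genes were called higher. Bst2, the interferon-induced surface protein tetherin that pDC carry, was at 240, 246 and 236 CPM in ADU-S100 + Doxorubicin, at 105, 172 and 143 CPM in Doxorubicin and at 105, 105 and 111 CPM in Control. Bst2 had a log2 fold change of 1.17 (SE 0.20, 95% interval 0.72 to 1.62) versus Control and 0.78 (SE 0.20, 0.34 to 1.23, short of a fold of 2) versus Doxorubicin. Its groups did not overlap in either, a pattern shown by 8.33% of all genes versus Control and 6.16% versus Doxorubicin. Irf7, the interferon-induced regulator of type I interferon genes, was at 686, 539 and 115 CPM in ADU-S100 + Doxorubicin and 151, 123 and 112 CPM in Control, with a log2 fold change of 1.80 (SE 0.59, 95% interval 0.47 to 3.12) and replicate 3 of the combination within the range of Control. Their edgeR adjusted p was 0.948. The call of Bst2 versus Control held in all 16 alternatives, whereas that of Irf7 was lost without ADU-S100 + Doxorubicin replicate 1, at 1.30.

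Levels of the other pDC genes differed widely. Cd300c was at 0 in 8 libraries, Ly6d and Upb1 in 5 each and Klk1b27 in 4, and Spib, Ccr9, Klk1 and Pacsin1 did not exceed 1.30 CPM in any library. Tlr7, a sensor of single-stranded RNA that macrophages make too, averaged 74.9 ± 34.9 CPM in ADU-S100 + Doxorubicin, 87.5 ± 17.4 CPM in Doxorubicin and 105 ± 17.4 CPM in Control (SD, n = 3 each). Ptprs was at 19.1 to 92.5, 31.2 to 70.2 and 33.0 to 63.0 CPM in the same order of groups. Tcf4, the factor that fixes pDC identity but is also made by other cells, was at 48.4, 77.2 and 46.1 CPM in ADU-S100 + Doxorubicin and 71.6, 64.3 and 73.9 CPM in Control, with a log2 fold change of -0.29 (SE 0.25). The median over the 15 tested pDC genes was -0.01 in ADU-S100 + Doxorubicin versus Control, and 7 were positive. Bst2 and Irf7 are both induced by interferon in many leukocytes and, with Irf4 and Itgb7 below, stand on gene lists the study chose from these libraries.

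**Figure D5:**
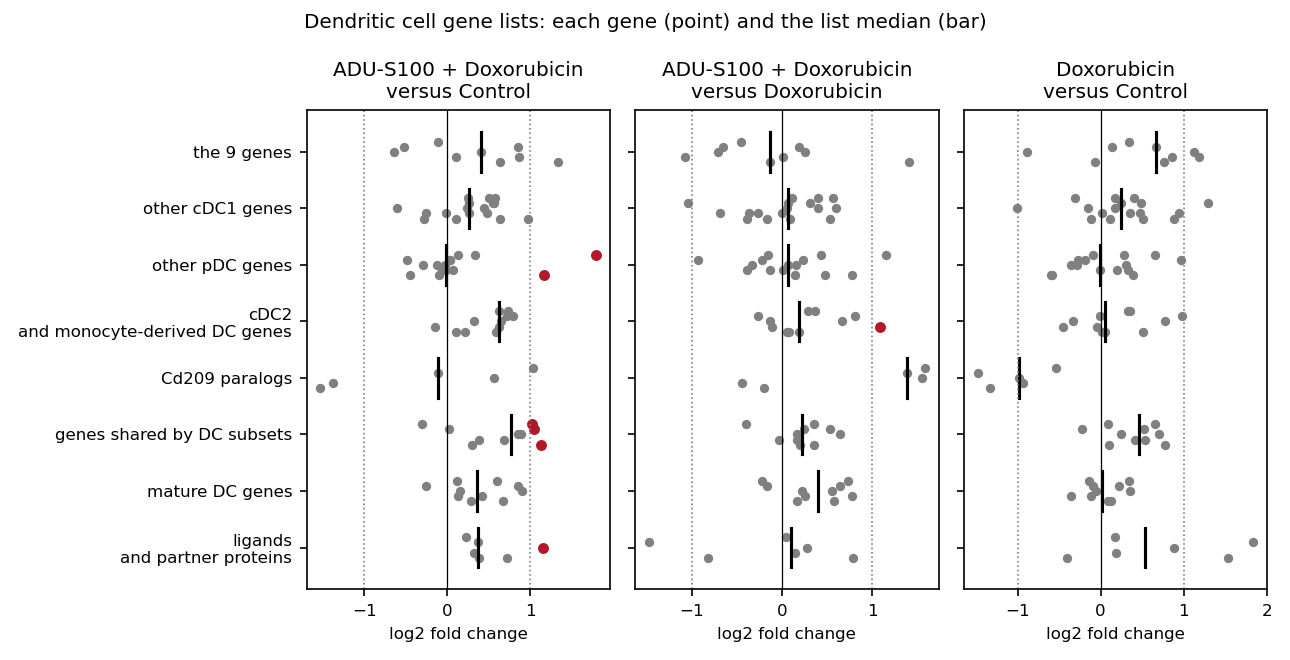
Log2 fold change of every tested gene (points) of the 9 genes and of 7 further lists in the 3 comparisons, with the median of each list (bars). Red points passed a fold of 2 with an unadjusted p under 0.05; these were Bst2, Irf7, H2-Aa, H2-Ab1, H2-Eb1 and Itgb7 in ADU-S100 + Doxorubicin versus Control and Irf4 in ADU-S100 + Doxorubicin versus Doxorubicin.

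Among 11 genes of type 2 and monocyte-derived dendritic cells, the cells that Cd209a is known for, 1 was called. That call was in ADU-S100 + Doxorubicin versus Doxorubicin, where 0.867% of all genes were called higher. Irf4, a transcription factor of type 2 dendritic cells, was at 7.50, 9.36 and 7.24 CPM in ADU-S100 + Doxorubicin, at 3.15, 3.30 and 4.94 CPM in Doxorubicin and at 6.45, 4.72 and 4.42 CPM in Control. The log2 fold change of Irf4 was 1.08 (SE 0.29, edgeR adjusted p = 0.999) versus Doxorubicin and 0.63 (SE 0.29) versus Control, with the combination above every other library. Groups did not overlap for 6.16% of all genes versus Doxorubicin and for 8.33% versus Control. The call was lost at 0.91 with limma-voom and at 0.96 to 0.99 without Doxorubicin replicate 1, Doxorubicin replicate 2 or ADU-S100 + Doxorubicin replicate 2. The median of the list was 0.62, 0.19 and 0.05 in ADU-S100 + Doxorubicin versus Control, ADU-S100 + Doxorubicin versus Doxorubicin and Doxorubicin versus Control. Sirpa, which is on the list, averaged 802, 867 and 891 CPM in ADU-S100 + Doxorubicin, Doxorubicin and Control. The part of other leukocytes in these values was not tested either.

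Of 10 genes shared by dendritic cell subsets, which macrophages and B cells express too, 3 were called. All 3 were higher in ADU-S100 + Doxorubicin versus Control, where 1.46% of all genes were called higher. The 3 were the MHC class II genes H2-Eb1 (log2 fold change 1.13), H2-Aa (1.05) and H2-Ab1 (1.02), at edgeR adjusted p = 0.948. H2-Aa was at 818, 1968 and 998 CPM in ADU-S100 + Doxorubicin and 853, 470 and 503 CPM in Control, so that its groups overlapped, and without ADU-S100 + Doxorubicin replicate 2 the 3 values were 0.70, 0.58 and 0.53 and no longer called. All 3 calls were also lost without Control replicate 2, without Control replicate 3 and without the library of highest fibroblast mean in each group. H2-Aa and H2-Eb1 are on the same gene list of the study as Cd209a. Sums of monocyte and macrophage genes were 8502 to 22326 CPM in ADU-S100 + Doxorubicin and 18200 to 20688 CPM in Control, and those of B cell genes at most 4.07 CPM in any library.

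None of 10 genes of mature dendritic cells was called. Relb, an NF-kappaB subunit needed for dendritic cell maturation, had the smallest p, with a log2 fold change of 0.68 (SE 0.26) versus Control. Ccr7, the receptor that leads dendritic cells to lymph nodes, was at 18.1, 30.3 and 6.40 CPM in ADU-S100 + Doxorubicin and 12.1, 7.15 and 10.1 CPM in Control, with 0.90 (SE 0.59).

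Ligands and partners of the 9 proteins gave 1 call among 6 genes, in ADU-S100 + Doxorubicin versus Control, where 1.46% of all genes were called higher. Itgb7, the integrin chain that pairs with CD103, was at 221, 170 and 94.7 CPM in ADU-S100 + Doxorubicin, at 110, 142 and 147 CPM in Doxorubicin and at 107, 67.7 and 43.2 CPM in Control. The log2 fold change of Itgb7 was 1.16 (SE 0.38, edgeR adjusted p = 0.948) in ADU-S100 + Doxorubicin versus Control, beside 0.11 for Itgae, and 0.88 (SE 0.38) in Doxorubicin versus Control. The call was lost without Control replicate 3, at 0.90, and without ADU-S100 + Doxorubicin replicate 1, at 0.82. Xcl1, the ligand of XCR1 that T and NK cells make, was at 0.111, 1.09 and 1.13 CPM in ADU-S100 + Doxorubicin, at 0.109, 1.16 and 5.19 CPM in Doxorubicin and at 1.17, 0.230 and 0.407 CPM in Control. It was thus highest in Doxorubicin replicate 3, as was Crtam, the partner of CADM1, at 2.21 CPM against at most 0.839 CPM elsewhere. Flt3l, the ligand of FLT3, was at 10.8 to 15.4 CPM in ADU-S100 + Doxorubicin, 11.3 to 11.7 CPM in Doxorubicin and 7.38 to 11.7 CPM in Control.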

How the data were processed

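Paired reads of stranded poly(A) libraries were filtered, aligned and counted by the authors with Trimmomatic (0.38), HISAT2 (2.1.0) on mm10 and StringTie (2.1.3b), and the submitters' notes also name SAMtools (1.9). The deposited values are raw counts per gene, whole numbers that were not normalized. Whether strand was used in counting is not given in the sources used here. Every value column was mapped to its library by name.

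Counts were tested with edgeR (4.0.16, R 4.3.3), with filterByExpr, TMM scaling, 1 model of the 3 groups and the quasi-likelihood test, two-sided, with Benjamini-Hochberg adjustment over 16373 genes. The standard error was derived from the fold change and the F statistic. Log2 CPM used a prior count of 2. DESeq2 (1.42.0), limma-voom with quality weights (limma 3.58.1), other scalings and filters, a replicate block, a fibroblast covariate and omission of libraries were alternatives. Total counts had a median of 54587679 per library. The test was tried on simulated data. Coordinates and promoters are RefSeq's on GRCm38, exon lengths GENCODE's.

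The 9 genes and all lists were chosen with earlier results of these data known. Named from each list were up to 4 genes with the smallest p, and 3 genes most like each of the 9. Other genes named for being high, low or at 0 were chosen after their values were seen.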

Additional observations from a re-analysis of the deposited data

How the results depend on the processing

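The alternatives were chosen with earlier results of these data known. Over 432 refits of the 9 genes, 379 kept direction and side of the threshold, 39 changed sign and 14 passed a fold of 2 with an unadjusted p under 0.05, as given above for Cd209a, Batf3, Clec9a and Cadm1 and with limma-voom for Xcr1 and Clec9a in Doxorubicin versus Control (2.03 and 1.42). In ADU-S100 + Doxorubicin versus Control, 1 of the 9 genes was called with limma-voom, 1 with the fibroblast covariate and 1 without the library of highest fibroblast mean in each group, and 0 to 1 with each library left out. In ADU-S100 + Doxorubicin versus Doxorubicin it was 1 with DESeq2, 1 without the fibroblast-high libraries and 0 to 1 with each library left out, and in Doxorubicin versus Control 2 with limma-voom and 0 to 1. All other settings called 0, and the cause was not tested.

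Calls among all genes, 355, 199 and 74 in the order of these comparisons, were 624, 573 and 310 with limma-voom, 579, 399 and 213 with no filter, and 709, 679 and 298 without the fibroblast-high libraries. They were 123 and 38 in ADU-S100 + Doxorubicin versus Doxorubicin and Doxorubicin versus Control at a CPM of 1 or more in 3 libraries, and 40 with leukocyte scaling and 156 with the fibroblast covariate in Doxorubicin versus Control. Leaving out each library gave 257 to 895, 154 to 678 and 44 to 211, the most without ADU-S100 + Doxorubicin replicate 3 in the first 2 comparisons and without Doxorubicin replicate 1 in the last, where it was 169 without Control replicate 1 and 44 without Doxorubicin replicate 3. Calls by adjusted p were 27, 9 and 2 with DESeq2, 1 in ADU-S100 + Doxorubicin versus Control with the 2 compared groups only, and 0 to 1 in Doxorubicin versus Control with each library left out.

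Sign changes in ADU-S100 + Doxorubicin versus Control were Itgae at -0.05 without the fibroblast-high libraries and Zbtb46 at 0.07 with limma-voom. Leaving out each library gave -0.06 to 1.19 for Xcr1, -0.33 to 0.72 for Itgae, -0.25 to 0.93 for Flt3 and -0.39 to 0.17 for Zbtb46. In ADU-S100 + Doxorubicin versus Doxorubicin, Clec9a was at -0.01 with DESeq2 and with RLE scaling, -0.19 with limma-voom, -0.20 with the covariate and -0.02 with the 2 groups only, Batf3 at -0.13 without the fibroblast-high libraries and Siglech at -0.98 with limma-voom. Ranges there were -1.13 to 0.33 for Xcr1, -0.67 to 0.35 for Clec9a, -0.20 to 1.07 for Batf3, -1.51 to 0.45 for Itgae, -1.02 to 0.61 for Flt3, -0.74 to 0.26 for Zbtb46 and -0.68 to 0.72 for Siglech. In Doxorubicin versus Control, Cadm1 was at -0.13 and Cd209a at 0.51 without the fibroblast-high libraries, and Cd209a at 0.32 with limma-voom. Ranges were -0.22 to 1.06 for Batf3, -0.02 to 0.39 for Cadm1, -0.34 to 1.79 for Itgae, -0.38 to 0.63 for Zbtb46 and -0.93 to 0.24 for Cd209a.

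Whether equal replicate numbers mark paired libraries is not given in the sources used here. Deviations of same-numbered libraries correlated at -0.60 to 0.38. These values cannot decide it, because the fibroblast content of each library enters them too. A fit that took the replicate numbers as a block called 265, 133 and 54 of all genes and 0 of the 9. In it Clec9a was at -0.14 in ADU-S100 + Doxorubicin versus Doxorubicin. Refits of other named genes, of list medians and of counts by adjusted p were added after the data were seen. Of 192 refits of other named dendritic cell genes, 24 lost a call, 17 of them among H2-Aa, H2-Ab1 and H2-Eb1, and 4 gained one. All 384 refits of list medians, the 9 genes included, moved by no more than the SD between libraries of a group. Leaving out 1 of 3 libraries can hardly move a median that far, so this does not show that the medians were stable. The median of the 9 genes changed sign with single libraries left out, as given above. Counts per library were 6 to 761 for the genes other than Cadm1. With 3 libraries a group, 26 of 27 intervals of the 9 genes included a fold of 2 in at least 1 direction, so that a call of 0 does not show that levels were alike.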
